A study of Caenorhabditis elegans with 68 samples.

Results

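The comparison described here set first-stage (L1) larvae of Caenorhabditis elegans that carry the n4117 allele of the microRNA gene mir-85 against wild-type larvae, at both salt levels that their mothers had been kept on. Its members were 8 libraries chosen by their titles, every library titled L1_WT and every one titled L1_miR85(n4117), out of 68 samples of the series and 48 with a column in the deposited table. The 4 wild-type libraries came from strain N2 (genotype Wild-type) and the 4 mutant libraries from strain MT12999 (genotype mir-85(n4117) II.). In each genotype 2 libraries were from larvae whose mothers were exposed to 50 mM NaCl and 2 from larvae whose mothers were exposed to 300 mM NaCl, and the larvae were hatched and whole. The series as a whole addresses how the salt that mothers meet reaches the RNA of their offspring, and what mir-85 and its target hrg-1 have to do with it. All mutant libraries came from 1 strain and all wild-type libraries from another, so within these 8 libraries the allele and anything else that differs between MT12999 and N2 cannot be told apart.

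A microRNA is a short RNA that is cut from a hairpin precursor, first by the Drosha and Pasha proteins in the nucleus and then by Dicer, and that guides an Argonaute protein to messenger RNAs with a match to its seed. Such messenger RNAs are usually held at a lower level, so that loss of the microRNA can let them accumulate. The hrg-1 gene encodes a transporter that moves heme out of the intestinal lysosome, and worms depend on it because they cannot make heme themselves.

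The values are TPM, the share of transcripts that each gene takes of its library after division by gene length, scaled to a fixed total; they keep no record of sequencing depth, so the depth behind each value is unknown. The TPM of the 8 libraries summed to between 965474 and 992892, and between 13283 and 14141 genes reached 1 TPM in each library. Replicates of the same group correlated across genes with r from 0.933 (n4117, 300 mM) to 0.968 (n4117, 50 mM) on the log2(TPM + 1) scale, and the 300 mM pair of n4117 was the least alike. The labels call the libraries biological replicates without naming separate cultures, so the p-values take in no more than the spread among these libraries, which may be technical. Marker genes of the main larval tissues were measured in every library, with summed TPM of 3218.4 to 7046.96 for intestine and 12145.7 to 19909 for body wall muscle. Unless another scale is named, every difference below is n4117 minus WT on the log2(TPM + 1) scale, from limma's moderated test with NaCl level as a covariate, and every adjusted p is a Benjamini-Hochberg value over all 14969 genes tested.

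Only srw-85 and R11H6.5 differed between the genotypes past an adjusted p of 0.05 over both salt levels, and both were lower in n4117, at 50 mM as at 300 mM. They are 0.0134% of the genes tested. No gene was higher in n4117 past that threshold by limma, while 138 genes (0.922%) were higher and 300 (2%) lower at an unadjusted p under 0.05. No gene's genotype difference changed with salt past the threshold by limma's interaction test, which had 174 genes (1.16%) at an unadjusted p under 0.05. On simulated data of the same size, the genotype test over both salt levels recovered 39.7% of genes changed by 1 log2 unit. It recovered 78.8% of those changed by 2 and 98.5% of those changed by 4, with 8 false calls. Smaller changes than those of srw-85 and R11H6.5 would thus often be missed. The interaction test was not simulated.

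The gene srw-85 encodes a member of the class W family of serpentine receptors, a nematode family of G protein-coupled receptors related to chemoreceptors. It lies on chromosome V at 19429387 to 19431136 on the minus strand (WBcel235), on another chromosome than mir-85. In WT it measured 76.05 and 99.45 TPM at 50 mM and 84.69 and 91.15 TPM at 300 mM. In n4117 it measured 2.32 and 2.69 TPM at 50 mM and 2.13 TPM in both libraries at 300 mM. All 4 mutant libraries were far below all 4 wild-type libraries, and within each genotype the 2 salt levels were close to each other. The genotype means were 87.8 ± 9.91 TPM in WT and 2.32 ± 0.264 TPM in n4117 (SD, n = 4 each), a 37.9-fold higher mean in WT. The log2 difference was -4.74 (SE 0.134, adjusted p = 2.94e-06 by limma), with -4.65 at 50 mM and -4.83 at 300 mM. The interaction with salt was -0.18 (unadjusted p = 0.57).

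The srw family has 145 genes in the table, and 6 of them reached the level needed for a test. In WT, srw-85 had the highest mean TPM of the family and made up between 54.4% and 75.5% of the family's summed TPM. In n4117 its share was between 3.16% and 6.46%. The other 5 tested family members did not follow it: 3 had a positive and 2 a negative difference, and the smallest of their unadjusted p-values was 0.53. Receptor genes of this family are close in sequence, and how reads that match several genes were counted is not given in the sources used here. The 5 other tested genes within 10 kb of srw-85, C25F9.15, C25F9.11, C25F9.16, C25F9.14 and M04C3.1, had positive differences from 0.10 to 0.57, and none passed the test.

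R11H6.5, a protein-coding gene on chromosome V at 14610713 to 14612222 on the minus strand, was near 0 in n4117. In WT it measured 11.4 and 13.22 TPM at 50 mM and 14.44 and 19.7 TPM at 300 mM. In n4117 it measured 0.23 and 0.03 TPM at 50 mM and 0.03 and 0.49 TPM at 300 mM. The genotypes did not overlap, and no mutant library reached 1 TPM. The means were 14.7 ± 3.57 TPM in WT and 0.195 ± 0.218 TPM in n4117 (SD, n = 4 each). The log2 difference was -3.71 (SE 0.199, adjusted p = 2.96e-04 by limma), with -3.56 at 50 mM and -3.85 at 300 mM and an interaction of -0.29 (unadjusted p = 0.51).

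Its neighbour R11H6.4, which ends 8 bases from R11H6.5 and was picked for mention after its values were seen, was at 0 in every n4117 library. In WT it measured 2.88 and 1.77 TPM at 50 mM and 2.68 and 1.07 TPM at 300 mM. Its difference of -1.59 (SE 0.266) did not pass the test (adjusted p = 0.69 by limma). In the other sets R11H6.4 was at 0.74 to 2.71 TPM in F1het and 1.66 to 3.55 TPM in F1KO, and gcp109 ranged from 0 to 3.07 TPM. The genes on the outer sides of this pair were at like levels in both genotypes. The globin gene glb-22 lies 4175 bases from R11H6.5 and had a difference of 0.06. The cyclin gene ccnk-1 starts 326 bases from R11H6.5 and had a difference of -0.14 (SE 0.123), with 14.64 to 18.86 TPM in WT and 12.48 to 18.51 TPM in n4117.

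Other libraries of the series show where these levels recur, and none of them shares a library with the 8 above. F1het larvae (strain MHE324, with mir-85(n4117) over the balancer mIn1, which carries mIs14 and dpy-10(e128)) and F1KO larvae (strain MHE324, homozygous for mir-85(n4117)) had heterozygous mothers and number 12 libraries. The gcp109 larvae (strain MHE339, labelled as a deletion of the mir-85 3p) number 8 libraries, and a further N2 set has 10; mothers of all of these were exposed to 50 or 300 mM NaCl. These sets have other titles and may have been made apart from WT and n4117, so their levels are set side by side. The only test between sets compared the genotype difference of n4117 and WT with that of F1KO and F1het. It was chosen after the values were seen. Its p-values are no separate support for genes named by their n4117 minus WT difference.

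In all 12 libraries of strain MHE324, srw-85 was as low as in n4117. It ranged from 2.48 to 3.56 TPM in F1het and from 1.18 to 3.03 TPM in F1KO. In gcp109 it ranged from 95.9 to 149 TPM, and in the further N2 set from 64.02 to 148 TPM except for 1 library at 300 mM with 7.67 TPM. The 16 libraries with the n4117 allele, heterozygotes included, thus lay between 1.18 and 3.56 TPM, and 21 of the 22 others lay at 64.02 TPM or above. F1KO minus F1het was -0.45 (SE 0.167, adjusted p = 0.664 by limma), against -4.74 for n4117 minus WT. The difference between these genotype differences, a comparison chosen after the values were seen, was -4.29 (adjusted p = 1.74e-07 by limma). Between F1KO and F1het 5 genes (0.0324%) passed the test, srw-85 and R11H6.5 not among them. They were pes-10 (-3.46), the reporter line s65cGFP (-2.91), F22B7.9 (-1.62), alh-7 (0.73) and F20B10.3 (1.43). F1het but not F1KO carries the balancer with mIs14, and its part in these calls was not tested. The difference between the genotype differences passed for 4 genes (0.0267%).

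R11H6.5 took a middle position in strain MHE324. It ranged from 4.15 to 7.07 TPM in F1het and from 5.12 to 7.14 TPM in F1KO, above every n4117 library and below every WT library. In gcp109 it ranged from 9.74 to 18.95 TPM, and in the further N2 set from 9.51 to 24.5 TPM with 1 library at 55.13 TPM. F1KO minus F1het was 0.12 (SE 0.128, adjusted p = 0.962 by limma), and the difference from the n4117 minus WT value was -3.83 (adjusted p = 2.22e-07 by limma). The N2 library with 55.13 TPM of R11H6.5 was the one with 7.67 TPM of srw-85.

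**Figure D1:**
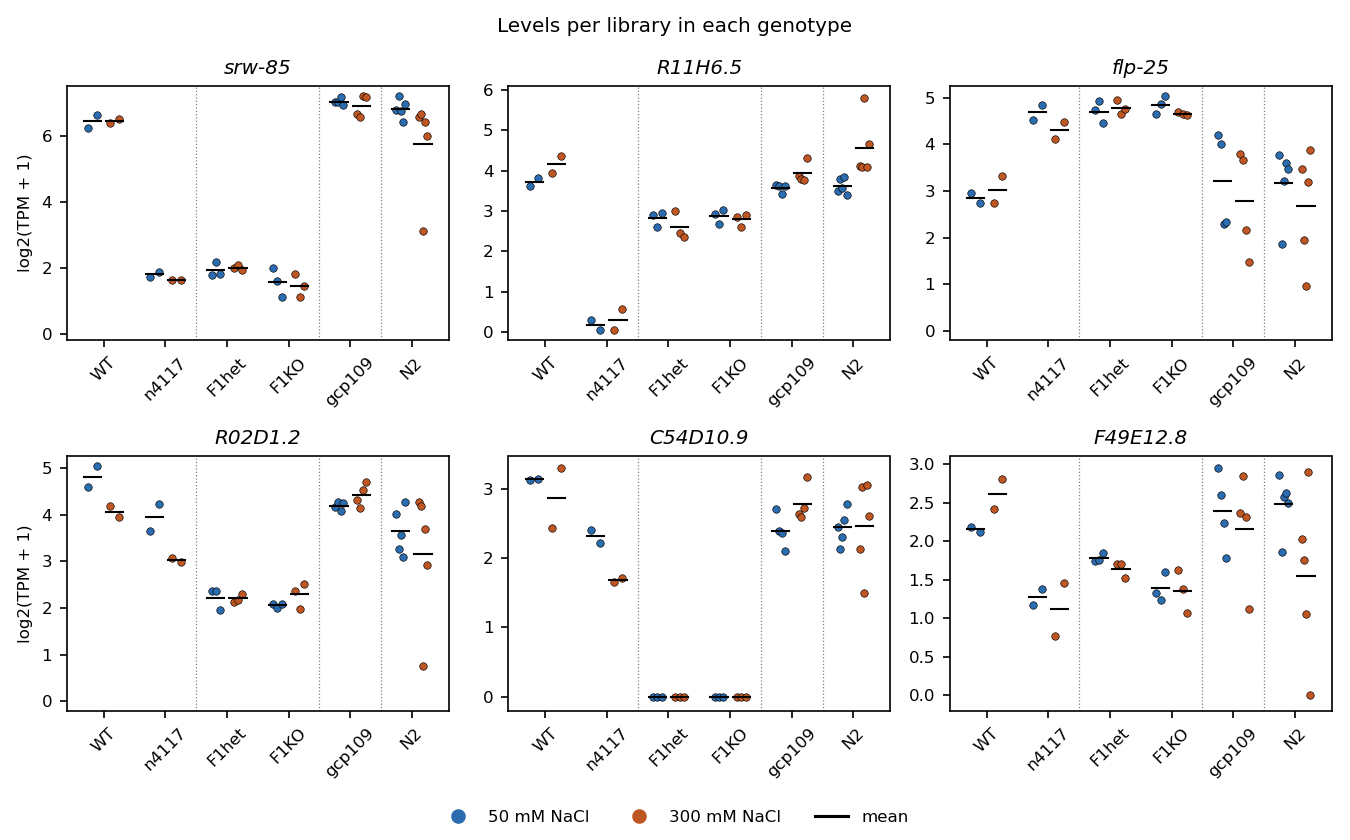
Level of 6 genes in each library, as log2(TPM + 1), by genotype on the horizontal axis, with 50 mM NaCl in blue, 300 mM in orange and the group mean as a black line. Dotted lines part sets of libraries that may have been made apart. srw-85 is low in n4117, F1het and F1KO and high in WT and gcp109; R11H6.5 is near 0 only in n4117 among the groups drawn.

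The highest-ranked genes on the higher side did not pass the test. The strongest by the rule was flp-25, which encodes FMRFamide-like neuropeptides and lies on chromosome III at 9361528 to 9365380. It measured 6.81 and 5.68 TPM at 50 mM and 5.68 and 8.93 TPM at 300 mM in WT. In n4117 it measured 22.12 and 27.72 TPM at 50 mM and 16.42 and 21.43 TPM at 300 mM. Every mutant library was above every wild-type library, and the difference was 1.56 (SE 0.199, adjusted p = 0.147 by limma). In strain MHE324 it was high in F1het and F1KO alike, from 20.9 to 29.8 TPM and from 23.6 to 32.0 TPM. In gcp109 it ranged from 1.78 to 17.3 TPM and in the further N2 set from 0.95 to 13.7 TPM, all below every F1het and F1KO library. The highest gcp109 library was above the lowest n4117 library, at 16.42 TPM. Every N2 library was below every n4117 library, but several N2 libraries were above the highest WT library, at 8.93 TPM. F1KO minus F1het was 0.01 (SE 0.103), and the difference from the n4117 minus WT value was 1.55 (adjusted p = 0.00394 by limma).

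The other 5 genes ranked on the higher side also missed the threshold. They were cnc-6, an antimicrobial peptide gene of the caenacin family, adr-1, which encodes an ADAR-family protein that binds double-stranded RNA, the protein-coding gene F10D2.8 and the noncoding RNAs T06F4.9 and T28B11.13. For cnc-6, WT measured 2.02 and 1.86 TPM at 50 mM and 6.4 and 6.06 TPM at 300 mM, and n4117 measured 3.57 and 6.09 TPM at 50 mM and 20.58 and 16.50 TPM at 300 mM. Within each salt level the n4117 libraries of cnc-6 were above the WT libraries, but the genotypes overlapped across salt levels (difference 1.19, SE 0.192, adjusted p = 0.639 by limma). For adr-1, WT measured 23.95 and 26.35 TPM at 50 mM and 41.69 and 44.33 TPM at 300 mM, and n4117 measured 40.68 and 32.65 TPM at 50 mM and 60.61 and 66.7 TPM at 300 mM. Its difference was 0.54 (SE 0.120), with 0.52 at 50 mM and 0.55 at 300 mM. F10D2.8 had a difference of 0.75, T06F4.9 of 1.65 and T28B11.13 of 1.36. In F1het, F1KO, gcp109 and the further N2 set the levels of cnc-6, T06F4.9 and F10D2.8 overlapped those of both WT and n4117. The further N2 set had adr-1 at 30.12 to 40.82 TPM at 50 mM and 50.53 to 79.83 TPM at 300 mM, above every WT library of the same salt level and overlapping n4117. It had T28B11.13 at 8.51 to 20.46 TPM at 50 mM, also above WT, and at 0 to 12.53 TPM at 300 mM, so for both genes wild-type libraries of the series reach the mutant levels.

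A pair of genes outside the rule is named after its values were seen, and neither passed the test. The noncoding RNA Y73B6BL.279 was listed at 0 in all 4 WT libraries and measured 2.47 and 2.56 TPM at 50 mM and 5.12 and 2.87 TPM at 300 mM in n4117 (difference 2.05, SE 0.236, adjusted p = 0.0885 by limma). It overlaps other genes on both strands and was also at 0 in at least 1 library of F1het, F1KO, gcp109 and the further N2 set. The protein-coding gene H34I24.2 varied widely among mutant libraries, with 9.47 and 24.03 TPM at 50 mM and 92.88 and 3.14 TPM at 300 mM in n4117. In WT it was at most 0.97 TPM (difference 3.59, SE 0.834, adjusted p = 0.9996 by limma). In the further N2 set H34I24.2 ranged from 1.48 to 58.7 TPM and in gcp109 it was at most 0.33 TPM, so wild-type N2 libraries of the series hold both levels.

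On the lower side, 4 genes filled the ranking after srw-85 and R11H6.5 without passing the test. They were R02D1.2, C54D10.9, Y47H9C.1 and F49E12.8. R02D1.2 measured 22.94 and 31.67 TPM at 50 mM and 17.13 and 14.33 TPM at 300 mM in WT, against 11.54 and 17.77 TPM at 50 mM and 7.37 and 6.97 TPM at 300 mM in n4117 (difference -0.95, SE 0.175, adjusted p = 0.895 by limma). In strain MHE324 it was lower still, from 2.87 to 4.13 TPM in F1het and from 2.96 to 4.74 TPM in F1KO, while gcp109 ranged from 15.8 to 24.9 TPM. The further N2 set ranged from 0.7 to 18.3 TPM, with its lowest value again in the library that was low for srw-85. At 50 mM the N2 set, at 7.53 to 18.28 TPM, and gcp109, at 15.81 to 18.33 TPM, were below both WT libraries and overlapped n4117. At 300 mM gcp109, at 16.65 to 24.86 TPM, was above both n4117 libraries, and the N2 set spanned both genotypes.

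C54D10.9 measured 7.75 and 7.85 TPM at 50 mM and 4.42 and 8.84 TPM at 300 mM in WT, against 4.28 and 3.67 TPM at 50 mM and 2.16 and 2.28 TPM at 300 mM in n4117 (difference -1.004, SE 0.209, adjusted p = 0.9996 by limma). It was listed at 0 in all 12 F1het and F1KO libraries. It ranged from 3.3 to 7.96 TPM in gcp109 and from 1.81 to 7.27 TPM in the further N2 set. At 50 mM gcp109, at 3.3 to 5.5 TPM, and the N2 set, at 3.38 to 5.87 TPM, were below both WT libraries and overlapped n4117. At 300 mM gcp109, at 5.03 to 7.96 TPM, was above both n4117 libraries, and the N2 set overlapped both genotypes. Another gene overlaps it on the opposite strand, and strand use in counting is not given in the sources used here. Y47H9C.1 had a difference of -0.78 (SE 0.163), and its levels in F1KO, gcp109 and the further N2 set overlapped both genotypes. In F1het it ranged from 0.93 to 5.67 TPM, below every WT library.

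Across all genes, mutant and wild-type libraries did not overlap at both salt levels in the same direction for 547 of 14969 genes, or 3.65%. The mutant was higher in 205 of these (1.37%) and lower in 342 (2.28%). Another 223 genes (1.49%) did not overlap at either level but went in opposite directions. The median size of the difference among the 547 genes was 0.42, and 51 reached a size of 1, of which 21 were higher and 30 lower in n4117. Of the 14969 genes, all 4 mutant libraries lay above all 4 wild-type libraries for 48 and below them for 97. With genotype labels shuffled within salt levels, a gene without ties fails to overlap at both levels in the same direction in a fraction of 0.0556 of the 36 arrangements. The 547 genes, at 3.65%, are under that fraction, so their count does not show that they differ. By chromosome, the share of tested genes without overlap ran from 2.93% on chromosome III to 4.39% on chromosome V among the nuclear chromosomes. Of the 211 tested genes within 500 kb of mir-85, 4.74% did not overlap at both levels, and none passed the test.

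**Figure D2:**
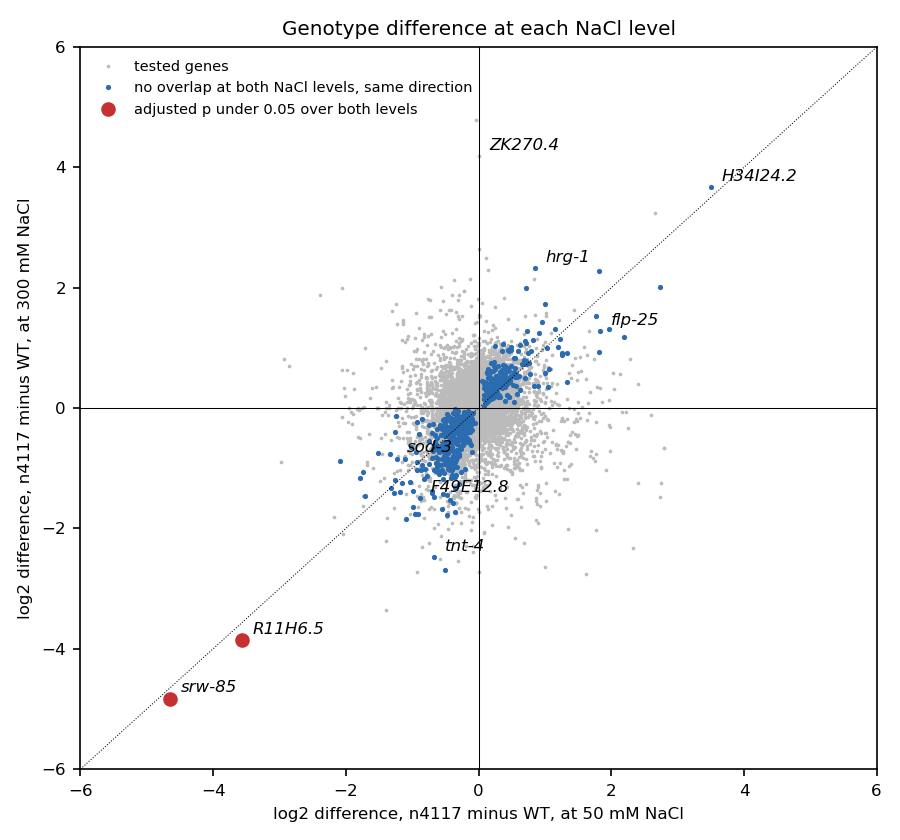
Each point is a tested gene, placed by its log2 difference (n4117 minus WT, log2(TPM + 1) scale) at 50 mM NaCl on the horizontal axis and at 300 mM NaCl on the vertical axis, with the dotted line where both are equal. srw-85 and R11H6.5, in red, lie near that line at about the same distance below 0 at both levels, ZK270.4 lies on the vertical axis because it was at 0 in every 50 mM library, and most blue points are within 1 log2 unit of 0.

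The mir-85 hairpin has no line among those analysed here, so the allele was examined through its surroundings. The WBcel235 annotation places mir-85 at bases 8393553 to 8393658 of chromosome II, plus strand, within F49E12.8, a gene of the minus strand that spans 8392568 to 8394305. F49E12.8 measured 3.56 and 3.36 TPM at 50 mM and 4.32 and 5.99 TPM at 300 mM in WT, against 1.26 and 1.61 TPM at 50 mM and 0.71 and 1.75 TPM at 300 mM in n4117. All 4 mutant libraries were below all 4 wild-type libraries. The difference over both levels was -1.18 (SE 0.233) and did not pass the test over all genes (adjusted p = 0.9996 by limma). An exact two-sided permutation test within salt levels gave p = 0.0556 (36 arrangements), the smallest p this design allows.

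Levels of F49E12.8 in the other sets are given without a test between sets. F1het, with 1 copy of the n4117 allele, ranged from 1.86 to 2.59 TPM with a mean of 2.29 ± 0.24 (SD, n = 6). F1KO, with the n4117 allele on both copies, ranged from 1.09 to 2.09 TPM with a mean of 1.61 ± 0.39 (SD, n = 6). F1KO minus F1het was -0.34 (SE 0.122) and did not pass the test (adjusted p = 0.643 by limma). In gcp109 F49E12.8 had a mean of 4.18 ± 1.8 TPM (SD, n = 8), and its range of 1.17 to 6.73 TPM overlapped all groups. The further N2 set also reached the levels of n4117 and both F1 groups, from 2.63 to 6.26 TPM at 50 mM and from 0 to 6.42 TPM at 300 mM.

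The other genes within 10 kb of mir-85 did not follow F49E12.8. F49E12.14, a noncoding RNA opposite the hairpin, was at 0 in all 8 libraries. The 5 others that reached the level needed for a test were F49E12.12, F49E12.9 (named drd-1 in the annotation), F49E12.10, F49E12.7 and the peroxidase gene skpo-1. Their differences were 0.03, 0.07, 0.21, -0.36 and -0.15 in that order, with unadjusted p-values from 0.22 to 0.86, and both genotypes overlapped for each.

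Of the genes that make microRNAs, drsh-1, which encodes Drosha, had a difference of 0.14 (SE 0.170), and pash-1, which encodes Pasha, one of 0.12 (SE 0.195). In the whole list of microRNA machinery, 0 of 12 tested genes passed and the median difference was 0.07, against -0.01 over all genes tested.

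The heme genes were higher in n4117 on the whole, most at 300 mM, but none passed the test. hrg-1 measured 7.81 and 7.49 TPM at 50 mM and 11.79 and 13.36 TPM at 300 mM in WT, against 16.83 and 12.78 TPM at 50 mM and 124.33 and 36.03 TPM at 300 mM in n4117. The mutant libraries were above the wild-type libraries at each level, and the mutant pair at 300 mM differed more from each other than any other pair. Over both levels the difference was 1.59 (SE 0.416, adjusted p = 0.9996 by limma), and the interaction with salt was 1.47 (unadjusted p = 0.073). An exact two-sided permutation test within salt levels gave p = 0.0556, again the smallest p possible. Without replicate 1 of n4117 at 300 mM the difference was 1.09, and without replicate 2 it was 1.80. The further N2 set had hrg-1 at 8.01 to 32.71 TPM at 50 mM and 11.84 to 27.06 TPM at 300 mM, so that wild-type libraries of the series span the n4117 levels at 50 mM and stay below them at 300 mM. In gcp109 hrg-1 ranged from 16.14 to 28.54 TPM at 50 mM and from 34.7 to 79.93 TPM at 300 mM. F1het ranged from 13.11 to 17.84 TPM at 50 mM and from 26.71 to 48.68 TPM at 300 mM. F1KO ranged from 11.54 to 22.25 TPM at 50 mM and from 40.01 to 52.06 TPM at 300 mM. At 300 mM heterozygous F1het larvae thus also reached the n4117 levels of hrg-1. An overlapping gene on the opposite strand, mop-25.1, could share reads with hrg-1.

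hrg-3, which encodes a secreted heme-binding protein that carries heme from the mother's intestine to embryos, measured 0.21 and 0.24 TPM at 50 mM and 0.44 and 1.67 TPM at 300 mM in WT. In n4117 it measured 0.2 and 0.52 TPM at 50 mM and 13.64 and 5.37 TPM at 300 mM, so that the genotypes overlapped at 50 mM and not at 300 mM. Its difference was 1.22 (SE 0.490), and 0.76 without replicate 1 of n4117 at 300 mM. hrg-4, which encodes a heme importer of the intestinal surface, was at most 1.0 TPM in WT and measured 0.88 and 0.59 TPM at 50 mM and 4.19 and 1.02 TPM at 300 mM in n4117, with a difference of 0.71 (SE 0.355), and 0.37 without the same library. All 6 tested heme genes had a positive difference, with a median of 0.65, while 48% of all genes tested were positive. The median was 0.22 at 50 mM and 0.96 at 300 mM.

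**Figure D3:**
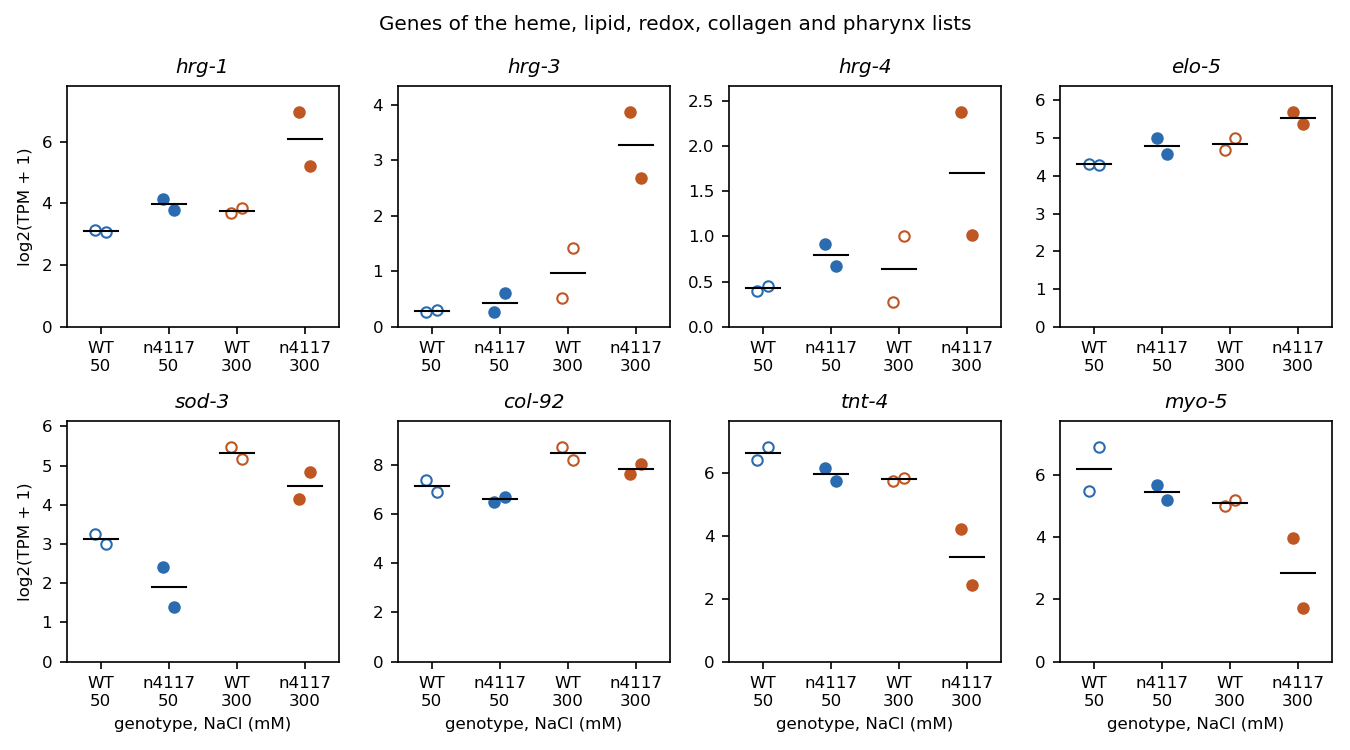
Level per library, as log2(TPM + 1), of 8 genes in WT (open circles) and n4117 (filled circles) at 50 mM (blue) and 300 mM NaCl (orange), with the mean of the 2 libraries as a black line. The hrg genes are highest in n4117 at 300 mM with a wide gap between the 2 libraries, and tnt-4 and myo-5 are lowest there.

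No member of any of the other lists passed the test in either direction, so their members are given by values. Among redox genes, sod-3, a mitochondrial superoxide dismutase gene, measured 8.6 and 7.06 TPM at 50 mM and 43.69 and 34.9 TPM at 300 mM in WT, against 4.29 and 1.64 TPM at 50 mM and 16.58 and 27.41 TPM at 300 mM in n4117. The mutant libraries were lower at each level (difference -1.04, SE 0.257), and both genotypes were higher at 300 mM. The flavin monooxygenase gene fmo-3 had a difference of -0.45 (SE 0.168), also without overlap at either level. The list as a whole was evenly split, with 8 of 17 tested members positive and a median of -0.04.

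Lipid genes likewise went both ways. elo-5, an elongase gene needed for branched-chain fatty acids, measured 18.95 and 18.58 TPM at 50 mM and 24.85 and 30.81 TPM at 300 mM in WT, against 31.12 and 23.08 TPM at 50 mM and 50.91 and 40.35 TPM at 300 mM in n4117. It was higher in the mutant at each level (difference 0.59, SE 0.151). fat-5, a delta-9 desaturase gene, had a difference of -0.55 (SE 0.180) and did not overlap at either level. The acyl-CoA synthetase gene acs-2 had a difference of 0.61 (SE 0.323), which was 0.34 without replicate 2 of WT and 0.29 without replicate 1 of n4117, both at 300 mM. Of 25 tested members of the lipid and carbohydrate list 16 were positive, and the median was 0.10.

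Collagens of the cuticle leaned lower in n4117. Of 76 tested col genes 62 had a negative difference, with a median of -0.16. Of the 76, 8 did not overlap at both levels, all lower, where 342 of 14969 tested genes (2.28%) were lower without overlap. The median was -0.27 at 50 mM and -0.06 at 300 mM, against -0.055 and 0.029 over all genes tested. The summed TPM of the col genes overlapped at both levels. At 300 mM it was 40375.7 to 43585.2 in WT and 37634.5 to 45885.4 in n4117. col-92 measured 166.33 and 119.19 TPM at 50 mM and 423.87 and 288.15 TPM at 300 mM in WT, against 88.2 and 102.64 TPM at 50 mM and 194.43 and 261.06 TPM at 300 mM in n4117 (difference -0.60, SE 0.180). col-126 had a difference of -0.66 and holds the same values as col-127 in every library, so the 2 genes were not told apart in counting.

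The markers of the pharynx, the feeding organ, which take in muscle genes, gland genes and the organ's regulator pha-4, had the lowest median of the lists described. tnt-4, a troponin T gene of the pharynx, measured 84.7 and 114.69 TPM at 50 mM and 53.08 and 57.35 TPM at 300 mM in WT, against 70.76 and 53.75 TPM at 50 mM and 17.76 and 4.45 TPM at 300 mM in n4117 (difference -1.57, SE 0.461). myo-5, a pharyngeal myosin gene, measured 43.42 and 118.77 TPM at 50 mM and 30.64 and 35.59 TPM at 300 mM in WT, against 50.57 and 35.57 TPM at 50 mM and 14.85 and 2.28 TPM at 300 mM in n4117 (difference -1.49, SE 0.548). For myo-5 the genotypes overlapped at 50 mM. Without replicate 2 of n4117 at 300 mM the difference was -1.03 for tnt-4 and -0.89 for myo-5. All 9 tested pharynx markers were negative, with a median of -0.85. Their summed TPM varied widely among WT libraries, at 800.38 and 2123.95 at 50 mM and 556.05 and 738.75 at 300 mM, and was 722.85 and 904.49 at 50 mM and 420.97 and 175.11 at 300 mM in n4117. In whole larvae, fewer cells of a type and less RNA per cell cannot be told apart.

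Neuronal markers also leaned lower, with 13 of 13 tested negative and a median of -0.21, although their summed TPM overlapped (1650.76 to 2870.46 in WT, 1635.73 to 2179.21 in n4117). Body wall muscle had 9 of 11 negative and a median of -0.13, and its myofilament gene unc-27 had a difference of -0.29 (SE 0.145). Germ cell markers leaned the other way, with 12 of 12 tested positive and a median of 0.46. Their summed TPM was 49.77 to 94.67 in WT and 54.73 to 181.63 in n4117, and the highest value was in the 300 mM replicate 1 library that was also highest for hrg-1. The germ granule gene deps-1 reached 15.27 TPM in that library and at most 4.42 TPM in the others, and its difference of 0.78 was 0.23 without that library.

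Oocyte and early embryo markers had 13 of 14 positive and a median of 0.35, but their summed TPM overlapped, at 273.37 to 307.22 in WT and 261.4 to 306.13 in n4117. The RNA-binding protein gene mex-3 did not overlap at either level, with 12.94 and 13.7 TPM at 50 mM and 18.49 and 20.55 TPM at 300 mM in WT, against 16.77 and 15.52 TPM at 50 mM and 22.73 and 22.83 TPM at 300 mM in n4117 (difference 0.24, SE 0.113). spn-4, another maternal RNA-binding protein gene, had a difference of 0.54 (SE 0.224) at levels of at most 2.81 TPM. The part of these marker groups in the genotype differences was not tested.

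Histone genes had 59 of 67 tested positive with a median of 0.15, and his-40 had a difference of 0.78 (SE 0.261). The histone median was 0.29 at 50 mM and 0.01 at 300 mM, against -0.055 and 0.029 over all genes tested. Several histone genes hold the same difference and SE, such as his-19, his-21, his-51 and his-53, so the count repeats some values. Ribosomal protein genes had 71 of 74 positive with a median of 0.09. Immune genes had 13 of 18 negative with a median of -0.10, among them T24B8.5 with a difference of -0.54 and F08G5.6 with -0.60. The mitochondrial cytochrome b gene ctb-1 had a difference of 0.42 (SE 0.178), and 0.25 without replicate 1 of WT at 300 mM, while the 12 mitochondrial genes were split 7 to 5 with a median of 0.04. Heat shock and chaperone genes had 19 of 22 positive, with a median of -0.18 at 50 mM and 0.71 at 300 mM. Their summed TPM at 300 mM was 5908.28 in replicate 1 of n4117, the library also highest for hrg-1 and germ cell markers, but 2930.26 in replicate 2, against 2839.69 and 2214.95 in WT. Genes of the osmotic response, 8 of 15 positive with a median of 0.02, of the insulin pathway, 6 of 16 positive with a median of -0.06, and of metal and iron handling, 7 of 11 positive with a median of 0.06, were close to the median of all genes.

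**Figure D4:**
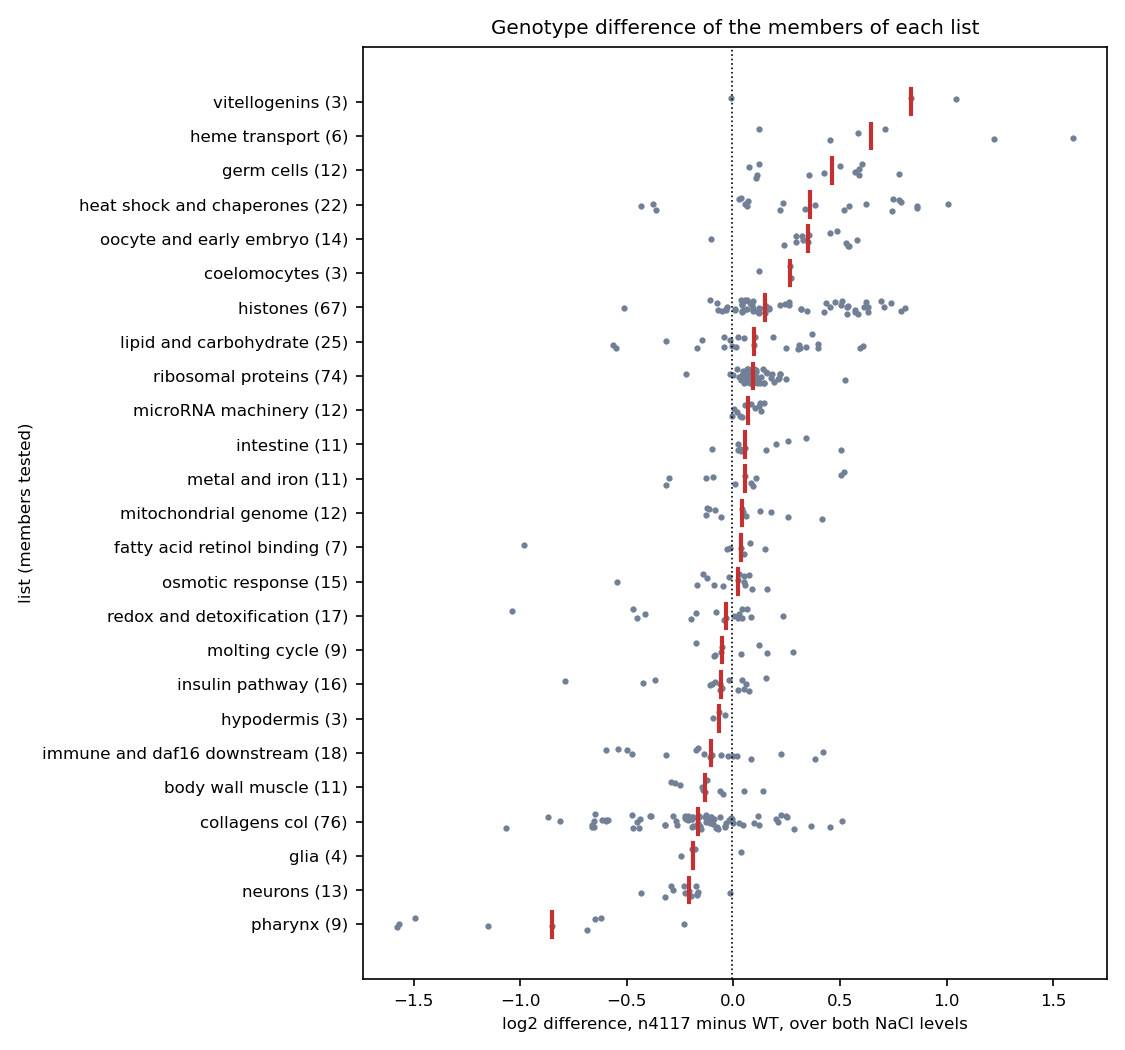
Log2 difference (n4117 minus WT over both NaCl levels, log2(TPM + 1) scale) of every tested member of each list with at least 3 tested members; grey points are genes, red bars the list medians, and the dotted line is the median of all genes tested. The pharynx list is farthest below that line at -0.85, and heme transport, at 0.65, is among the lists farthest above it.

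Few genes passed the test within 1 salt level, where 2 libraries per group could miss many differences. At 50 mM alone, srw-85 and R11H6.5 passed the test (0.0134%). At 300 mM these 2 genes and the noncoding RNA ZK270.4 passed (0.02%), and ZK270.4 was at 0 in every library except n4117 at 300 mM, with 22.54 and 13.02 TPM. In the 8 fits that left out 1 library, srw-85 kept its call at each level and R11H6.5 lost it at both levels in 6. ZK270.4 lost its call in the 6 of these fits that tested it, and without either n4117 library at 300 mM it fell below the level needed for a test. The interaction of ZK270.4 with salt was 4.18 (SE 0.499) and did not pass the test over all genes (adjusted p = 0.69 by limma). The other noncoding RNAs with the smallest interaction p-values were EGAP3.2 and C15F1.12. EGAP3.2 was at 0 in n4117 at 50 mM and at 4.24 TPM or more in all other groups (interaction 3.55), and C15F1.12 was at 0 except in WT at 300 mM, with 6.07 and 5.12 TPM (interaction -2.72). All of these are listed at 0 in some groups, and each of these 3 genes overlaps another gene on its own strand.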

How the data were processed

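RNA over 200 nucleotides from whole L1 larvae was sequenced, per the labels' protocols. The authors deposited TPM values per gene in 1 table of 30470 lines. Genome builds ce11 and WBcel235 and the tool bedtools are named in the submitters' processing notes; for the aligner, the counting and its use of strand the sources used here name nothing, so near-identical, overlapping and antisense genes are uncertain. In the table, 11 gene names had been turned into dates and were restored. In the columns of the N2 and gcp100 set, 20688 lines were displaced by reporter lines and were moved back, which raised the correlation with the other columns from r = 0.593 to r = 0.988. Positions came from the WBcel235 annotation, by gene identifier.

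Values were taken as log2(TPM + 1). A gene was tested where 2 or more of the 8 libraries reached 1 TPM, with limma 3.58.1 (R 4.3.3, trend option) in a model of NaCl level plus genotype; contrasts at each level and the interaction came from a model with 1 mean per group. F1KO and F1het were fitted alike on their 12 libraries (1 TPM reached in 3 or more). The comparison of the 2 genotype differences used 20 libraries with 1 mean per group, and was chosen after seeing the data. Adjusted p-values are Benjamini-Hochberg values, with a threshold of 0.05. Genes were named by a rule: up to 15 per direction past the threshold without overlap at either level and with 5 TPM or more as the mean of a group, filled to 6 by the smallest unadjusted p; hrg-1, F49E12.8, drsh-1, pash-1 and genes within 10 kb of mir-85; up to 3 per list; and the 3 genes with the smallest interaction p. The comparison, the lists and the rule were chosen with earlier results of these data known. Lists are described by counts and medians over the members that reached the level needed for a test, with no test of a list. A list of mir-85 seed matches was not used here. The fit was tested on simulated data, and the alternatives tried were a pseudocount of 0.1, no filter, rescaling, replicate blocks, no salt covariate, a spread shared with other sets and leaving out each library.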

Additional observations from a re-analysis of the deposited data

Results flagged for a closer look

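For 3 genes the genotype difference of n4117 and WT was unlike that of F1KO and F1het, by limma on the difference of the differences (4 of 14969 genes passed). It was -4.29 for srw-85, -3.83 for R11H6.5 and 1.55 for flp-25, since F1KO and F1het were at like levels for each. These genes were named by their n4117 minus WT difference. The comparison was chosen after the values were seen, so it is no separate support for them.

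Among 52 groups of 4 or 5 libraries examined, each for a gene ranked highest above or for hrg-1, a single library stood apart in 7, where chance gives about 1 in 20 groups. R11H6.5 had such a library 3 times, at 55.13 TPM in the further N2 set at 300 mM, at 18.95 TPM in gcp109 at 300 mM and, on the low side, at 9.74 TPM in gcp109 at 50 mM. T28B11.13 had 1 at 12.53 TPM in N2 at 300 mM, and T06F4.9 had 1 at 20.14 TPM in gcp109 at 300 mM. cnc-6 had 1 at 29.8 TPM in N2 at 50 mM and 1 at 15.7 TPM in gcp109 at 50 mM. The library at 55.13 TPM and the one at 12.53 TPM are the same, replicate 3 of N2 at 300 mM, which was also the N2 library low for srw-85.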

How the results depend on the processing

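Over both salt levels srw-85 and R11H6.5 were the only genes past the threshold under each alternative run, including each of the 8 fits that left out 1 library, except that a spread shared with the F1 and gcp109 sets gave 5 genes, adding R02D1.2, C54D10.9 and adr-1; the count of genes alike at both levels moved in the same way, from 2 to 5. In the fit with the shared spread, C54D10.9 was at 0 in all 12 F1het and F1KO libraries, so these libraries added no spread to its estimate. R02D1.2 was at 2.87 to 4.74 TPM in them, below its levels in WT and n4117. Counts within 1 salt level were less stable. R11H6.5 lost its call at 50 mM with no filter and with the replicate block. With a pseudocount of 0.1 R11H6.5 lost its call at both levels, and EGAP3.2 passed in its place at 50 mM. At 50 mM the count of 2 became 12 with no filter, 4 with the shared spread and 1 to 3 when a library was left out; leaving out replicate 1 of WT at 50 mM gave the 3, and leaving out any library but that one or those of n4117 at 300 mM gave 1. At 300 mM the count of 3 became 1 with a pseudocount of 0.1, 12 with no filter, and 1 to 8 when a library was left out. It was 8 without replicate 1 of n4117 at 300 mM, 4, hrg-1 among them, without replicate 2, and 1 without any of the others. Each such fit leaves 1 group with a single library, assumed to vary like the other groups. The interaction had 0 genes throughout. F1KO minus F1het had 5 genes, and 3 or 4 when a library was left out (3 without replicate 2 or 3 of F1het at 50 mM, replicate 3 of F1het at 300 mM or replicate 3 of F1KO at 300 mM). The cause of these shifts was not tested.

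The titles give the replicate numbers 1 and 2 to every group, but nothing says that a number marks a shared culture, and same-numbered libraries deviated together unevenly (r from -0.126 to 0.257). With the replicate number as a block the count over both levels was 2 again, that at 50 mM 1, that at 300 mM 2 and that of F1KO minus F1het 14.

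Of 671 single-gene values under alternatives 663 kept direction and side of the threshold, 3 passed it and 5 near 0 changed sign, all when a library was left out: pash-1 (-0.0060 to 0.21 over these fits), F49E12.9 (-0.0061 to 0.12) and F49E12.12 (-0.049 to 0.13). Rescaling moved the median of all genes from -0.01 by under 0.1. With 2 libraries per group and unknown depth, genes under a few TPM are the least certain.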
